A study of Rattus norvegicus with 12 samples.

Results

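Livers with a biliary fistula (BF) were compared with sham-operated livers (Control) 4 h after partial hepatectomy (PH) in rats, the time at which the remnant liver carries out its immediate transcriptional response. The comparison uses 2 of the 12 columns of an RNA sequencing table, BF and Control at 4 h, and takes as its members the genes that were at least 2-fold apart between them. Genes whose 12 columns averaged 1 RPKM or more numbered 8459, and 368 of them met this rule, 101 higher and 267 lower in BF. RPKM is the number of reads on a transcript, divided by transcript length and by library size. The same groups just before resection, at 0 h, were used to divide the 368 genes into those that already differed and those that did not.

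Bile acids are made from cholesterol in hepatocytes, secreted into bile, taken up again in the ileum and returned to the liver in portal blood. Within the liver they bind the nuclear receptor FXR, which represses the genes of bile acid synthesis. An external biliary fistula drains bile from the animal and so interrupts this circuit. After PH the remaining hepatocytes leave quiescence, and the first hours are known for induction of immediate early transcription factors, of the interleukin 6 and STAT3 pathway and of the acute phase proteins that this pathway controls.

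All animals were male Sprague Dawley rats, 4 to 5 months old by the study's methods, and all carried a duodenal catheter with saline infusion. BF rats had the fistula from 24 h before PH, Control rats had a sham fistula for the same time, and rats of the third group, BF + BA, had the fistula with a duodenal infusion of sodium taurocholate from 12 h before PH. A column holds the authors' mean over 2 runs on whole liver, 1 of 1 rat and 1 of combined RNA of 3 rats, so 4 rats stand behind a value. The weight of each run in this mean is not known, so the 1 rat may count for more than each of the 3. Only this mean was analysed here, so no spread between rats could be computed, no difference has a replicate check, and the number of reads is unknown. The group names follow the sample titles and the study's methods, in which BF is the fistula without infusion. The sample descriptions say the reverse, giving the infusion to the samples titled BF and no bile to those titled BA. If the descriptions were right, the fistula without infusion would be the column called BF + BA here, and 171 genes would be higher and 445 lower at 4 h. CYP7A1, the rate-limiting enzyme of bile acid synthesis, which bile acids returning from the gut are known to repress, was at 387 RPKM at 0 h in the column titled BF, 54.9 in that titled BA and 60.0 in Control. CYP8B1, of the same pathway and also repressed by bile acids, was at 1576, 110.2 and 136 RPKM. The study reports from quantitative PCR that liver Cyp7a was raised before PH in rats with the fistula and that the infusion reversed this. It also reports similar Cyp7a results from PCR and sequencing. In the columns used here, the raised level is in the one titled BF. Because titles and descriptions conflict, the value in the BF + BA column is given beside BF and Control for many of the genes named below, though not for all.

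The 4 columns compared were alike in their totals. RPKM summed to 732108 in Control and 765308 in BF at 4 h, and the 10 most abundant genes took 31.6% and 37.8% of these sums. In the BF + BA column at 4 h the sum was 982826 and the share of these genes 53.2%, with albumin at 303640 RPKM against 78927 in BF and 81796 in Control. Over all 8459 genes, BF to Control had a median log2 ratio of -0.18 at 0 h and -0.07 at 4 h, with SDs across genes of 0.48 and 0.45. The 9 expressed hepatocyte markers were at similar summed levels in both groups at 4 h, 149700 RPKM in Control and 145300 in BF. The 10 markers of Kupffer cells and macrophages summed to 298 and 303 RPKM, and 6 expressed cholangiocyte markers to 13.6 and 21.1 RPKM. In whole liver, fewer cells of a type and less RNA per cell cannot be told apart.

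Of the genes higher in BF at 4 h, about as many already differed before resection as did not. The 101 genes were 1.19% of those compared, and the 267 lower genes were 3.16%. Of the 101, 50 genes, or 49.5%, were already at least 2-fold higher in BF at 0 h, when 1.73% of all genes were. A further 14 were 1.5- to 2-fold higher at 0 h, 33 were within 1.5-fold, and 4 were at least 1.5-fold lower. Of the 267 lower genes, 94, or 35.2%, were already at least 2-fold lower at 0 h, against 2.16% of all genes. Another 59 were 1.5- to 2-fold lower at 0 h, 105, or 39.3%, were within 1.5-fold, and 9 were at least 1.5-fold higher.

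The direction at 0 h went with the direction at 4 h for most members. A log2 ratio above 0 at 0 h was found for 82 of the 101 higher genes, or 81.2%, while 25.9% of all genes were above 0 at that time. A ratio below 0 was found for 231 of the 267 lower genes, or 86.5%, against 73.9% of all genes. The median log2 ratio of the higher genes was 0.98 at 0 h and 1.36 at 4 h, and that of the lower genes was -0.74 and -1.33. Of the 50 higher genes already apart at 0 h, 37 lay closer to Control at 4 h than at 0 h. Of the 94 lower ones, 53 lay farther from it.

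**Figure D1:**
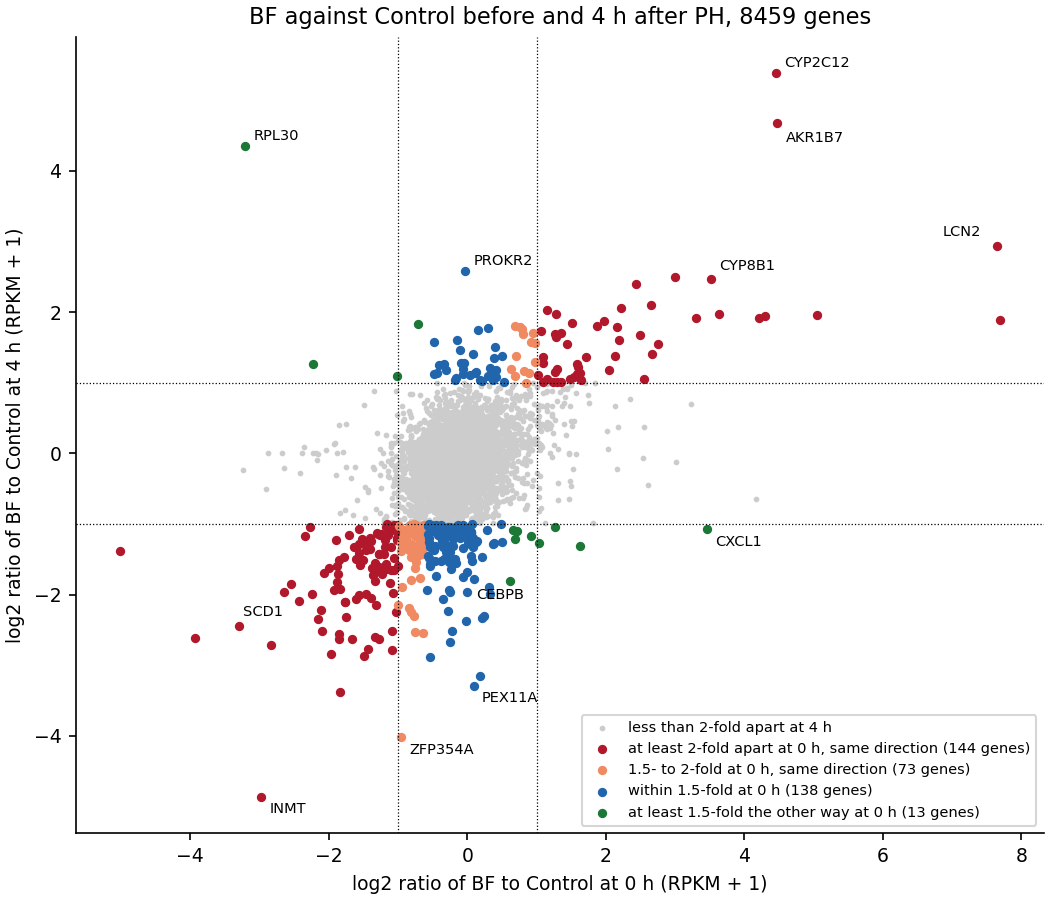
Each point is 1 of 8459 genes, placed by its log2 ratio of BF to Control (RPKM plus 1) at 0 h on the x axis and at 4 h on the y axis, with dotted lines at 2-fold. The 368 genes at least 2-fold apart at 4 h are coloured by their difference at 0 h, 144 at least 2-fold the same way, 73 between 1.5- and 2-fold, 138 within 1.5-fold and 13 at least 1.5-fold the other way.

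Differences at 0 h were often not carried to 4 h. The choice of such genes by their ratio at 0 h in single columns favours a smaller ratio at 4 h. Of 146 genes at least 2-fold higher in BF at 0 h, 50, or 34.2%, were still so at 4 h. Among the other 96, Control had moved toward BF by at least 2-fold for 38 genes and BF toward Control for 19. Of 183 genes at least 2-fold lower at 0 h, 94, or 51.4%, were still so at 4 h. The members nearest to the limit were KIF12, a kinesin, at a log2 ratio of 1.00, and TMEM176B at 1.01, while CYP4A2, a fatty acid hydroxylase, lay just outside it at 0.997. On the lower side PPAP2C and GSTA3 lay just inside at -1.001 and -1.002, and CITED2, a transcriptional coregulator, just outside at -0.999.

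The 12 genes highest in BF at 4 h were led by CYP2C12, AKR1B7, RPL30, LCN2, PROKR2 and PCOLCE. CYP2C12 is a steroid-hydroxylating cytochrome P450 that in rats is known as the female form. It was at 10.3 RPKM in Control and 247 in BF at 0 h, while the 4 h values were 12.2 and 549 RPKM, with 463 and 80.3 RPKM in BF + BA at these times. Both Control columns were thus low and both BF columns high, a log2 ratio of 4.45 at 0 h and 5.39 at 4 h, and the difference was gone at 12 h, when Control reached 330.3 RPKM and BF was at 313. AKR1B7, an aldo-keto reductase that reduces lipid aldehydes, was near 0 in Control, at 0.21 and 0.55 RPKM, and was at 25.8 and 38.6 RPKM in BF and at 0.95 and 5.59 in BF + BA. It had a log2 ratio of 4.47 at 0 h and 4.68 at 4 h, so this difference was also present before resection.

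Several of the 12 genes were high in BF at both times. FGL1, a liver-secreted protein of the fibrinogen family, went from 3133 to 2254 RPKM in BF and from 499.9 to 527 in Control. ISYNA1, which makes inositol phosphate from glucose phosphate, was at 53.4 and 50.9 RPKM in BF and at 10.7 and 11.5 in Control. PCOLCE, an enhancer of procollagen processing, was at 44.1 and 25.8 RPKM in BF and 4.65 and 3.76 in Control. For these 3 genes and for SPINK3, a trypsin inhibitor with log2 ratios of 2.43 and 2.40, the ratio at 4 h was no larger than at 0 h.

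The groups grew apart after resection for PROKR2, a receptor for prokineticins. For CGREF1, a secreted calcium-binding protein, they were already at least 2-fold apart at 0 h and grew farther apart. PROKR2 was at 0.03 RPKM in Control and 0.01 in BF at 0 h, while the 4 h values were 0.01 and 5.03 RPKM. This rise took it from almost no reads to a low level, and in BF + BA it was at 6.62 RPKM at 4 h. CGREF1 went from 3.64 to 12.5 RPKM in BF and from 0.91 to 2.45 in Control. Its log2 ratio was 1.28 at 0 h and 1.97 at 4 h. RPL30, a ribosomal protein gene, had 13.1, 0.35, 0.87 and 21.0 RPKM at 0, 4, 12 and 24 h in Control and 0.52, 26.5, 33.1 and 42.2 RPKM in BF. It was below 1 RPKM in Control at 4 and 12 h and in BF at 0 h, and it shares sequence with processed copies, so its values are uncertain.

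**Figure D2:**
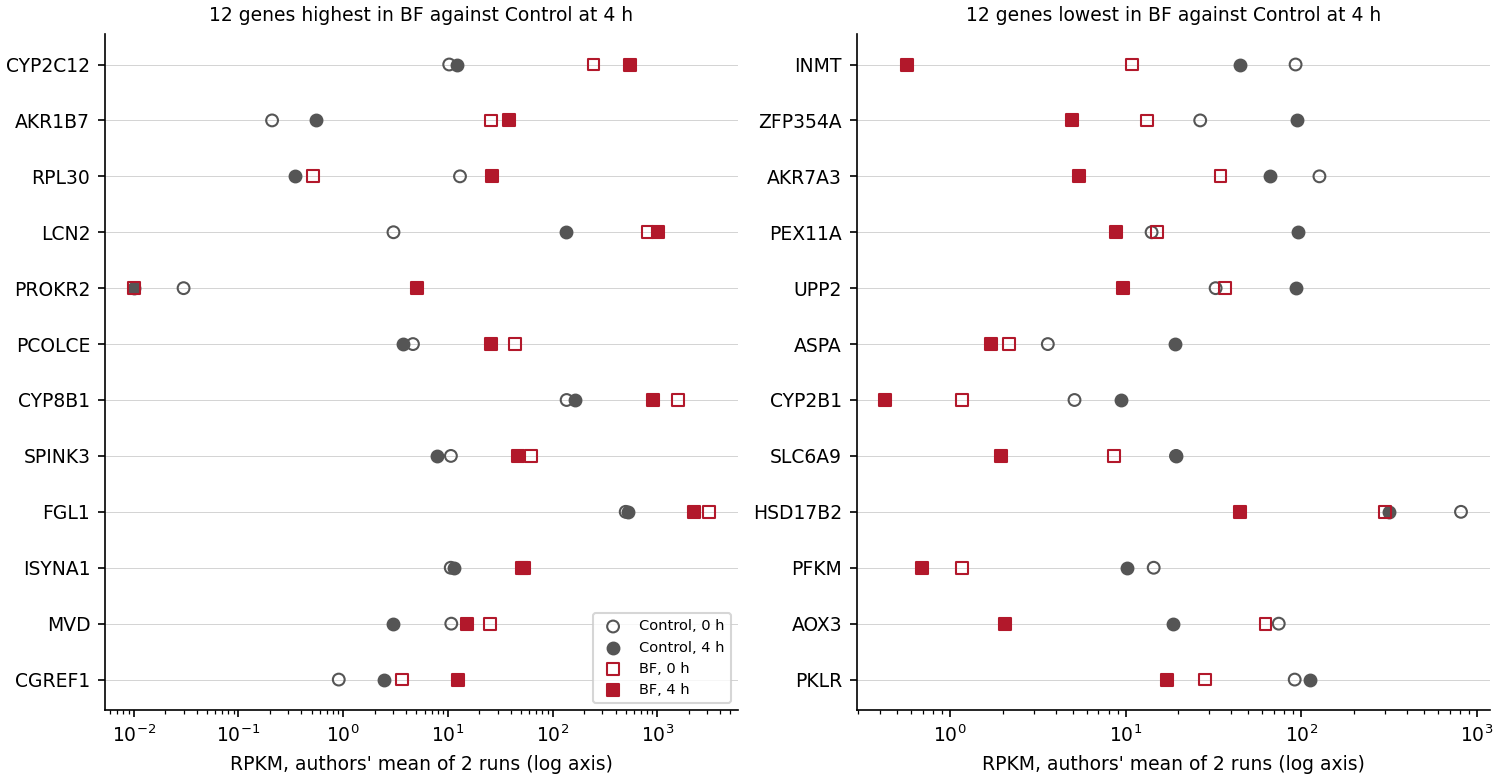
Points are RPKM on a log axis, each the authors' mean of 2 runs, for the 12 genes highest (left) and the 12 lowest (right) in BF against Control at 4 h, with circles for Control, squares for BF, open symbols for 0 h and filled symbols for 4 h. CYP8B1 and FGL1 had both squares to the right of both circles, whereas PEX11A and UPP2 had overlapping open symbols and separate filled ones.

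The 12 lowest genes held some that were already low and others that parted from Control after resection. INMT, an indolethylamine N-methyltransferase, was at 92.7 RPKM in Control and 10.9 in BF at 0 h, while the 4 h values were 44.6 and 0.57 RPKM, with 3.71 RPKM in BF + BA. It fell in both groups, and the log2 ratio grew from -2.98 to -4.86. AKR7A3, a reductase of toxic aldehydes, went from 127 to 66.2 RPKM in Control and from 34.7 to 5.46 in BF. HSD17B2, which oxidises active sex steroids, fell from 809.9 to 314 RPKM in Control and from 300.1 to 45.0 in BF. The lower starting level was thus followed by a larger fold decrease in BF in each of these 3 genes, while the decrease in RPKM was larger in Control. PFKM, the muscle form of phosphofructokinase, differed as much before as after, at 14.4 and 1.17 RPKM at 0 h and 10.1 and 0.69 at 4 h.

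PKLR, the liver form of pyruvate kinase, was at 91.7 RPKM in Control and 28.3 in BF at 0 h, while the 4 h values were 112 and 17.1 RPKM, with 48.7 in BF + BA. SLC6A9, a glycine transporter, stayed at 19.4 RPKM in Control and fell from 8.59 to 1.96 in BF. CYP2B1, a cytochrome P450 known for its induction by phenobarbital, went from 5.12 to 9.41 RPKM in Control and from 1.17 to 0.43 in BF. The other genes of this group, ZFP354A, PEX11A, UPP2, ASPA and AOX3, are described with the altered responses.

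For the 138 genes that were within 1.5-fold of each other at 0 h, the 2-fold difference was not present before resection. This choice makes their changes from 0 to 4 h differ between the groups, so the counts below describe only which column moved. Among the 33 higher genes, a change of at least 2-fold in either direction from 0 to 4 h was seen in BF alone for 14, in Control alone for 6, in both groups for 4 and in neither for 9. Among the 105 lower genes it was seen in Control alone for 28, in BF alone for 33, in both for 18 and in neither for 26. Of those 18 genes, 10 rose in both groups and 7 fell in both. In all, Control rose by at least 2-fold for 39 of these 105 genes and BF fell by at least 2-fold for 41.

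The first kind, a rise of at least 2-fold in Control with a change under 1.5-fold in BF, included CEBPB, ASPA, GJA4, ELOVL6 and PFKFB3. CEBPB encodes a transcription factor of the acute phase and of liver regeneration. It was at 35.7 RPKM in Control and 35.7 in BF at 0 h, while the 4 h values were 145 and 36.2 RPKM, with 37.0 and 66.2 RPKM in BF + BA at these times. By 12 h Control was back at 44.8 RPKM against 31.1 in BF. PEX11A, which takes part in peroxisome division, also rose in Control, from 14.1 to 95.6 RPKM, but went down from 15.0 to 8.87 in BF, with 12.0 and 14.6 in BF + BA. ASPA, an aspartoacylase, rose from 3.61 to 19.0 RPKM in Control and was at 2.18 and 1.72 in BF.

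GJA4, a connexin of arterial endothelium, rose from 4.02 to 20.6 RPKM in Control and was at 3.32 and 2.80 in BF. ELOVL6, a fatty acid elongase, rose from 2.75 to 16.5 RPKM in Control and was at 3.41 and 2.55 in BF. PFKFB3, an activator of glycolysis, rose from 0.59 to 5.65 RPKM in Control and was at 0.98 and 0.80 in BF, with 5.63 in BF + BA. These 3 genes share a low or moderate level at 0 h in both groups. In BF + BA at 4 h, ASPA, GJA4 and ELOVL6 were at 2.72, 3.64 and 0.88 RPKM.

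A weaker rise in BF than in Control was seen for several stress genes. FKBP5, a glucocorticoid-induced chaperone, went from 10.7 to 82.1 RPKM in Control and from 11.3 to 27.9 in BF. CDKN1A, an inhibitor of the cell cycle, rose from 9.24 to 67.2 RPKM in Control, and the changes from 7.41 to 24.0 RPKM in BF and from 7.98 to 70.9 RPKM in BF + BA were rises too. CTGF, a matrix-associated growth regulator, went from 1.91 to 22.9 RPKM in Control and from 2.36 to 7.62 in BF. All 3 rose by at least 2-fold in both groups and were lower in BF at 4 h, with log2 ratios of -1.52, -1.45 and -1.47. In BF + BA at 4 h, FKBP5 and CTGF were at 42.8 and 18.4 RPKM.

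The second kind, a fall in BF without one in Control or a larger one, included metabolic enzymes. AOX1, an aldehyde oxidase, was at 151 and 119.7 RPKM in Control and fell from 148 to 22.4 in BF. AOX3, another aldehyde oxidase, fell from 74.4 to 18.6 RPKM in Control and from 62.5 to 2.07 in BF. UPP2, a uridine phosphorylase, moved in opposite directions, from 32.5 to 93.7 RPKM in Control and from 36.9 to 9.69 in BF. All 3 enzymes were within 1.5-fold of each other in the groups before resection. IGF2BP3, an RNA-binding protein, fell from 20.7 to 0.88 RPKM in BF and went from 17.8 to 8.47 in Control. ZFP354A, a zinc finger transcriptional repressor, was 1.5- to 2-fold lower in BF at 0 h, and went from 26.6 to 95.0 RPKM in Control and from 13.2 to 4.93 in BF. In BF + BA at 4 h, AOX1, AOX3, UPP2, IGF2BP3 and ZFP354A were at 75.6, 17.8, 32.1, 1.38 and 9.08 RPKM.

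Genes that became higher in BF after resection did so by a rise in BF or by a smaller fall than in Control. G0S2, an inhibitor of triglyceride breakdown, fell from 217 to 31.3 RPKM in Control and from 196 to 96.9 in BF. The fall was thus smaller in BF, while ABCG2 and WNT4 rose there. ABCG2, an efflux transporter, was at 3.77 and 4.53 RPKM in Control and rose from 2.42 to 15.5 in BF. WNT4, a secreted signal, rose from 0.93 to 6.09 RPKM in BF and went from 0.46 to 1.49 in Control. In BF + BA at 4 h, G0S2, ABCG2 and WNT4 were at 13.1, 3.54 and 4.56 RPKM.

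**Figure D3:**
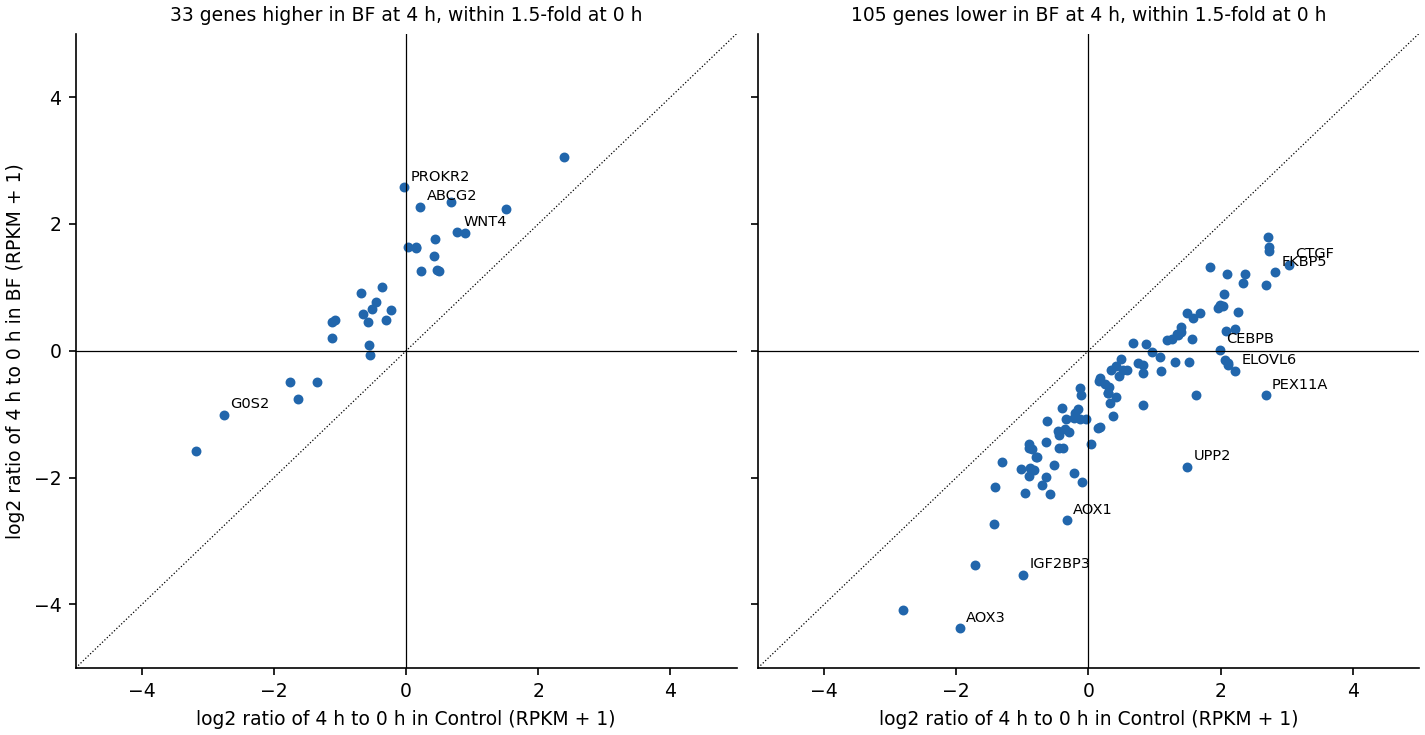
Each point is a gene that was within 1.5-fold between the groups at 0 h and at least 2-fold higher (left, 33 genes) or lower (right, 105 genes) in BF at 4 h, placed by its log2 ratio of 4 h to 0 h (RPKM plus 1) in Control on the x axis and in BF on the y axis; the dotted line marks equal responses. CEBPB, with 1.99 in Control and 0.02 in BF, lies on the horizontal line through 0, and AOX1, with -0.33 and -2.67, lies near the vertical line. The choice of the genes keeps all points off the dotted line.

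The 13 genes that crossed over were few, and 9 of them went from higher to lower in BF. ZFP36, which destabilises inflammatory mRNAs, was at 31.9 RPKM in Control and 51.0 in BF at 0 h and at 92.3 and 43.1 at 4 h. CXCL1, a neutrophil-attracting chemokine, was at 1.66 and 28.2 RPKM at 0 h and at 254 and 119.9 at 4 h. NFKBIZ, a nuclear regulator of NF-kappa B targets, was at 8.10 and 20.8 RPKM at 0 h and at 24.6 and 11.4 at 4 h. GADD45B, a stress-induced signalling protein, was at 1.93 and 5.03 RPKM at 0 h and at 44.7 and 17.9 at 4 h, with 80.3 in BF + BA. In all 4, BF was above Control before resection and below it afterwards. ZFP36, NFKBIZ and CXCL1 lay close to the 2-fold limit at 4 h.

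More genes passed 2-fold between 0 and 4 h in BF than in Control. From 0 to 4 h, 339 genes rose by at least 2-fold in Control, 4.01% of all, and 434 in BF, 5.13%. The fallen genes numbered 439 in Control, 5.19%, and 585 in BF, 6.92%. Both groups shared 189 risen genes, 55.8% of those in Control and 43.5% of those in BF, and 263 fallen genes, 59.9% and 45.0%. The 339 genes that rose in Control had a median log2 change of 1.49 there and 1.15 in BF, and 309 of them, or 91.2%, moved upward in BF as well, while 3 fell in BF by at least 2-fold. The 439 genes that fell in Control had medians of -1.31 in Control and -1.16 in BF, and 418 of them, or 95.2%, moved downward in BF. The choice of these genes by their change in Control favours the larger value there.

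Of 29 gene lists written for liver and for PH, 24 had a median below 0 at 4 h, when the median of all genes was -0.07, and 3 held no gene at least 2-fold apart, namely ribosome biogenesis, growth factors and receptors, and the TGF-beta, activin and BMP list. The lists together held 33 of the 101 higher and 76 of the 267 lower genes.

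Of the 29 lists, the acute phase list had the largest change of its median between 0 and 4 h. Acute phase proteins are plasma proteins that hepatocytes secrete in larger amounts during inflammation and after surgery. Of 28 expressed members, 19 were at least 2-fold higher and 1 lower in BF at 0 h, against 6 and 2 at 4 h, and the list's median log2 ratio went from 1.45 to 0.36. Their median change from 0 to 4 h was 1.73 in Control and 0.09 in BF. Of the 16 that rose by at least 2-fold in Control, 15 were already at least 2-fold higher in BF at 0 h and 7 rose by at least 2-fold in BF. Control thus moved toward a level that BF already had.

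LCN2, a siderophore-binding protein of hepatocytes and neutrophils, was at 3.03 RPKM in Control and 808 in BF at 0 h, while the 4 h values were 134 and 1028 RPKM, with 1388 and 1659.8 RPKM in BF + BA at these times. Its log2 ratio went from 7.65 to 2.93 and to 0.93 at 12 h, when Control reached 2220.1 RPKM. ORM1, the alpha-1-acid glycoprotein, went from 986 to 4907 RPKM in Control and was at 18261 and 18532 in BF and 15033 and 16559 in BF + BA. KNG1, a kininogen that is an acute phase protein in rats, went from 1036 to 3411 RPKM in Control and was at 12811 and 13351 in BF. In BF these 3 genes moved by less than 1.5-fold, while all 3 rose by at least 2-fold in Control. A2M, the alpha-2-macroglobulin of the rat, HPX, hemopexin, and ITIH4, an inter-alpha-trypsin inhibitor chain, were also at least 2-fold higher in BF at 4 h, by log2 ratios of 1.89, 1.18 and 1.14, against 7.69, 2.05 and 1.63 at 0 h. SERPINA3K, a serine protease inhibitor known to fall in inflammation, and CD14, a coreceptor for bacterial lipopolysaccharide, were lower, at -1.21 and -1.05.

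Markers of neutrophils moved with the acute phase genes. Over 10 neutrophil markers the sum was 8.36 RPKM in Control and 27.9 in BF at 0 h and 45.0 and 44.7 at 4 h. S100A8 and S100A9, which the acute phase list also holds, made up most of it, and the granule markers MPO and ELANE were at or below 0.07 RPKM in these 4 columns. The part of such cells in the acute phase values was not tested.

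STAT3 binds a palindrome that begins with TTC and ends with GAA, and the promoters of the acute phase members that hold it are shown here, since the median of this list changed most between 0 and 4 h. A window around the start of transcription was taken from RefSeq for the GRCr8 assembly, and TTCNNNGAA, which reads the same on both strands, was searched in it. Of the 28 members, 21 had a promoter in the table and 5 of these, or 23.8%, held the motif, against 6.57% of 5788 expressed genes with a promoter and 8.68% of 27457 promoters. The excess was not seen for this motif alone, since the AP-1 element TGANTCA was also in 5 of the 21, or 23.8%, against 5.03% of expressed genes and 7.33% of promoters. TTATGNAA, searched on both strands, was in 2 of the 21 and the sterol element TCACNCCAC, likewise on both strands, in none. Capitals mark the match to TTCNNNGAA.
FGA: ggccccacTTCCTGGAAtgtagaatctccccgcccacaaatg
FGB: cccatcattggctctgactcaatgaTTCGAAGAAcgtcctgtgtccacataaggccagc
SERPINA3N: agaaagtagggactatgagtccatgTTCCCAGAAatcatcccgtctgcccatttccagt
ITIH4: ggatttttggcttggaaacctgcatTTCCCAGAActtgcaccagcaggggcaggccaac
HAMP: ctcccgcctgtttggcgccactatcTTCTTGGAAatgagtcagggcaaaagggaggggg
These stretches lie at chr2:170671919-170671960 on the plus strand (FGA), chr2:170701065-170701123 on the minus strand (FGB), chr6:129088244-129088302 on the plus strand (SERPINA3N), chr16:6086871-6086929 on the plus strand (ITIH4) and chr1:95300355-95300413 on the minus strand (HAMP). FGA and FGB encode fibrinogen chains and were at log2 ratios of 1.27 and 1.20 at 0 h and 0.48 and 0.36 at 4 h. SERPINA3N, a secreted protease inhibitor, was at 1.5 and 0.45, and HAMP, the iron hormone hepcidin, was lower in BF at both times, at -0.56 and -0.94. LCN2, ORM1 and KNG1, which had larger ratios at 0 h, are not among these 5 genes, and no promoter of A2M was available to search. A match is a stretch of letters and says nothing of binding in these livers. The list was chosen for its change in these data and the motif for the list, so the values are a description.

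Genes of interleukin 6 and STAT3 signalling went the same way as the acute phase list. The 21 expressed members had a median of 0.25 at 0 h and -0.46 at 4 h, and their median change from 0 to 4 h was 1.10 in Control and 0.11 in BF. STAT3 itself was at 33.5 RPKM in Control and 79.8 in BF at 0 h and at 198 and 192 at 4 h. CEBPB, NFKBIZ and SOCS2, a feedback inhibitor of growth hormone signalling, were the 3 members at least 2-fold lower at 4 h. SOCS2 was already lower at 0 h, with 38.7 RPKM in Control and 7.24 in BF, and was at 34.9 and 16.4 at 4 h. SOCS2 rose by at least 2-fold in BF and not in Control, and was at 7.46 and 50.3 RPKM in BF + BA at 0 and 4 h.

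Immediate early genes, which cells transcribe within minutes of a stimulus, were induced in both groups. Of 21 expressed members, 13 rose by at least 2-fold in Control and 14 in BF, 9 of them in both, and the list's median at 4 h was -0.20. At least 2-fold lower in BF were CTGF, ZFP36 and MAFF, a small Maf factor that went from 1.16 to 10.2 RPKM in Control and from 0.71 to 2.98 in BF. FOS, a subunit of the transcription factor AP-1, was at 0.42 and 0.45 RPKM at 0 h and at 3.60 and 1.18 at 4 h, with 4.70 in BF + BA. JUN, its partner, was at 30.1 and 7.70 RPKM at 0 h and at 27.5 and 14.8 at 4 h, a log2 ratio of -0.85 that did not reach 2-fold, with 25.5 and 34.7 in BF + BA. The levels of FOS were low throughout, and the JUN difference was smaller at 4 h than at 0 h. MAPK14, a kinase of the AP-1 activation list, was at 40.8 RPKM in Control and 39.6 in BF at 0 h. At 4 h it was at 114 and 56.6 RPKM, with 112 in BF + BA, a log2 ratio of -0.998 just short of 2-fold. All 7 expressed members of the AP-1 activation list had ratios below 0 at 4 h, with a median of -0.54, where 59.4% of all expressed genes were below 0. With the group names of the sample descriptions this median was 0.10, so its direction differs between the namings. The study reports that early expression of this gene set after PH was lower with the fistula than in both other groups. The direction found with the sample titles is the same. CYP7A1 and CYP8B1, given above, were also raised before resection in the column titled BF alone. MYC, a driver of cell growth, was at 3.63 and 6.76 RPKM at 0 h and 27.4 and 17.2 at 4 h.

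Ribosome biogenesis genes were below Control at 0 h and closer to it at 4 h. Of 44 expressed members, 1 was above Control at 0 h and 12 at 4 h, and the median went from -0.53 to -0.18. Of all genes, 25.9% were above Control at 0 h and 59.4% below it at 4 h, and their median went from -0.18 to -0.07. From 0 to 4 h, 16 members of the list rose by at least 2-fold in Control and 32 in BF, and all 16 risen in Control were among the 32. Of all genes, 4.01% rose so in Control and 5.13% in BF. The list's summed level was 673 RPKM in Control and 444 in BF at 0 h and 1285 and 1170 at 4 h. Of the list on cyclins, G1 and growth arrest, 4 of 29 expressed members were at least 2-fold lower and none was at least 2-fold higher. They were CDKN1A, GADD45B, GADD45A, a DNA damage-induced gene at 78.1 RPKM in Control and 33.0 in BF, and CCND1. CCND1, which encodes cyclin D1, was at 24.6 RPKM in Control and 4.03 in BF at 0 h and at 9.33 and 3.58 at 4 h, so that its difference was larger before resection.

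Cholesterol synthesis was the list with the highest median at 4 h, and it hardly changed from 0 h. This pathway turns acetyl-CoA into cholesterol, the precursor of bile acids. Of 25 expressed members, 11 were at least 2-fold higher and 1 lower at 0 h, 9 and 0 at 4 h, and 23 had ratios above 0 at each time. The median was 0.95 at 0 h and 0.86 at 4 h, while the median change from 0 to 4 h was -0.67 in Control and -0.51 in BF. HMGCS1, which makes the precursor of mevalonate, fell from 211 to 58.0 RPKM in Control and from 833 to 214 in BF, with 992 and 98.2 in BF + BA. MVD, mevalonate diphosphate decarboxylase, fell from 10.8 to 2.98 RPKM in Control and went from 25.2 to 15.2 in BF. SC4MOL, a sterol methyl oxidase, fell from 137 to 37.7 RPKM in Control and from 391 to 139 in BF. The log2 ratio of HMGCS1 was 1.98 and 1.87, and that of MVD grew from 1.15 to 2.02.

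**Figure D4:**
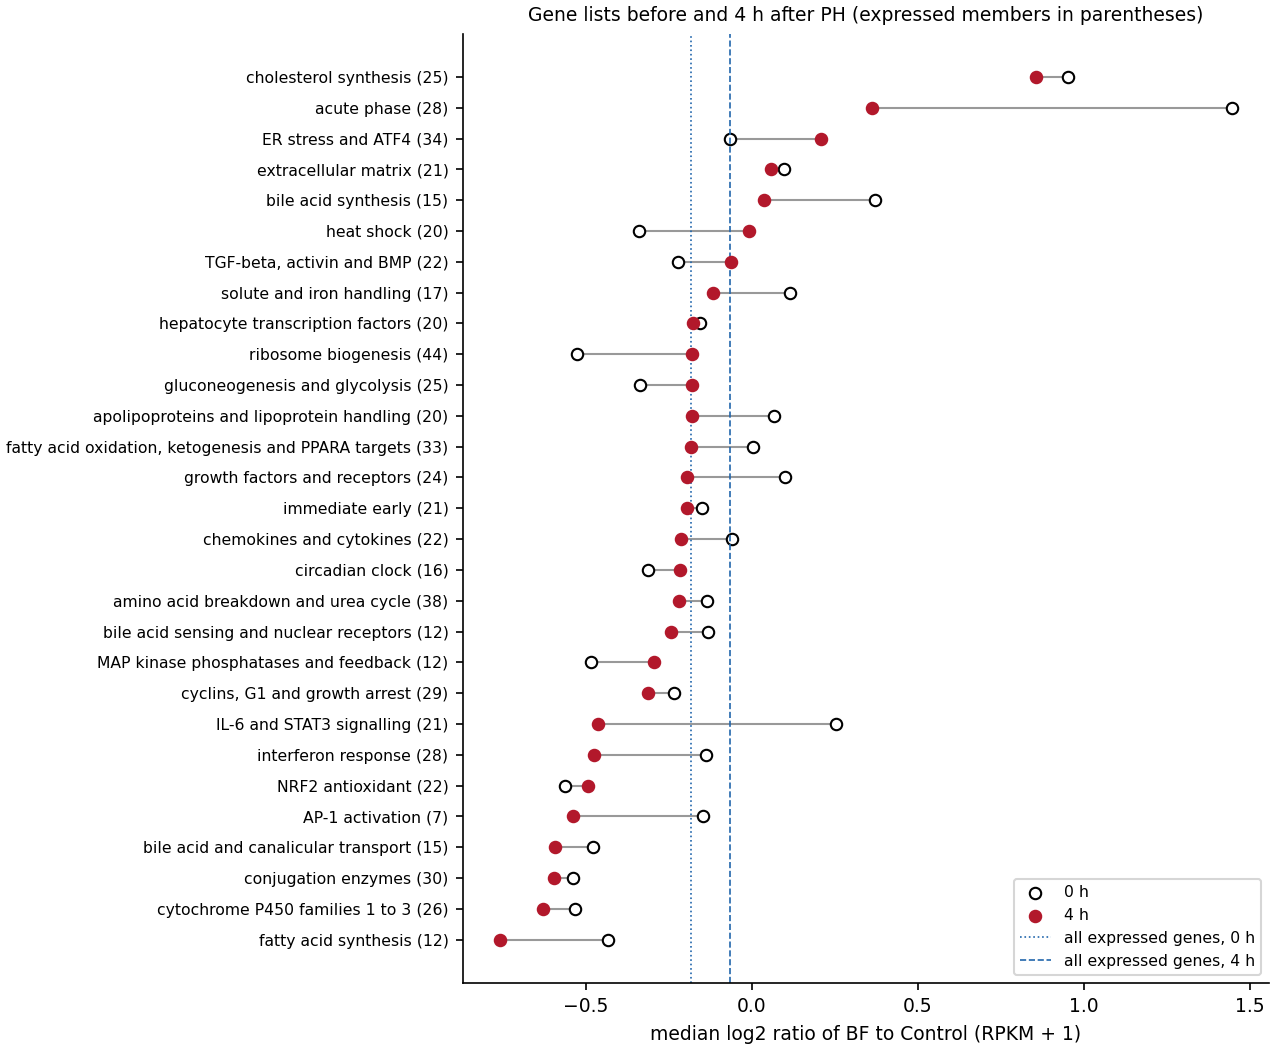
For each of 29 gene lists, the median BF to Control log2 ratio (RPKM plus 1) is shown at 0 h (open circles) and 4 h (filled circles), with blue lines at the medians of all expressed genes. The acute phase median fell from 1.45 to 0.36, the IL-6 and STAT3 median from 0.25 to -0.46, and the cholesterol synthesis median was 0.95 and 0.86.

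Of the genes of bile acid synthesis, 2 of 15 were at least 2-fold higher and 1 lower at 4 h. CYP7A1, the rate-limiting enzyme, fell from 387 RPKM before resection to 13.8 RPKM at 4 h in BF. In Control it fell from 60.0 to 4.59 RPKM, and in BF + BA from 54.9 to 1.81 RPKM. The log2 ratio was 2.67 at 0 h, 1.40 at 4 h and 3.84 at 12 h, so that the groups were closest at 4 h among these times. CYP8B1, which directs synthesis to cholic acid, stayed high in BF, at 1576 and 919 RPKM, against 136 and 164 in Control and 110.2 and 161 in BF + BA. Of these 6 columns the BF columns alone were high. BAAT, which joins bile acids to amino acids, fell from 1385 to 518 RPKM in Control and from 1028 to 232 in BF. NR0B2, the FXR target that represses CYP7A1, fell from 42.3 to 10.6 RPKM in Control and from 20.2 to 1.45 in BF, with 12.7 and 1.85 in BF + BA. It was at least 2-fold lower in BF at both times. NR1I3, a receptor for foreign compounds, was at 77.8 and 56.6 RPKM at 0 h and at 10.2 and 2.37 at 4 h.

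Transporters of sterols into bile were low in BF before and after resection. ABCG5 and ABCG8 together form the cholesterol exporter of the canalicular membrane. ABCG5 was at 30.7 RPKM in Control and 6.12 in BF at 0 h and at 24.9 and 4.11 at 4 h, with 2.15 in BF + BA. ABCG8 was at 5.17 and 0.67 RPKM at 0 h and at 3.18 and 0.39 at 4 h. S1PR2, a sphingosine phosphate receptor that also binds conjugated bile acids, was at 3.29 and 3.99 RPKM at 0 h and rose in BF to 11.1, against 4.96 in Control and 19.4 in BF + BA at 4 h.

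Enzymes of drug metabolism had medians below 0 in BF at both times. Of 26 expressed cytochrome P450 genes of families 1 to 3, 8 were at least 2-fold lower and 1, CYP2C12, higher at 4 h, with a median of -0.53 at 0 h and -0.63 at 4 h. Of 30 expressed conjugation enzymes, 9 were lower and 1 higher, with medians of -0.54 and -0.60. CYP3A18, a testosterone hydroxylase, was at 855 RPKM in Control and 235 in BF at 0 h and at 639 and 108 at 4 h. GSTM2, a glutathione transferase, was at 825 and 242 RPKM at 0 h and at 655 and 151 at 4 h. Both were at least 2-fold lower in BF at each time, whereas the next gene was so at 4 h. GSTT3, of another class of these transferases, went from 322 to 226 RPKM in Control and from 178 to 48.9 in BF. These families hold near-identical copies, and how the authors divided reads between copies is not given in the sources used here, so single members such as CYP2C12, CYP2B1 and CYP3A18 are uncertain.

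Genes of fatty acid synthesis had the lowest median of the 29 lists at 4 h, -0.76, against -0.43 at 0 h, and 4 of 12 members were at least 2-fold lower. SCD1, a fatty acid desaturase, was at 50.4 RPKM in Control and 4.21 in BF at 0 h and at 98.7 and 17.3 at 4 h, with 24.1 and 123 in BF + BA. THRSP, a lipogenic regulator, was at 1060.5 and 439 RPKM at 0 h and 810.2 and 301 at 4 h, with 1095 in BF + BA. PPARA, the receptor that drives fatty acid oxidation, was at 30.5 and 11.4 RPKM at 0 h and 17.6 and 4.87 at 4 h. The differences of these 3 genes were present before resection. PDK4, an inhibitor of glucose oxidation, became 2-fold lower only after it, with 38.3 and 25.6 RPKM at 0 h and 167 and 60.4 at 4 h.

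Interferon response genes were not at least 2-fold apart at 0 h, and 6 of 28 were at least 2-fold lower and 1 higher at 4 h. The median went from -0.14 to -0.48, and 10 members fell by at least 2-fold from 0 to 4 h in BF against 1 in Control. USP18, a negative regulator of interferon signalling, went from 17.5 to 10.9 RPKM in Control and from 11.8 to 3.73 in BF, with 13.7 in BF + BA. IRF7, a transcription factor of the interferon response, went from 13.9 to 10.2 RPKM in Control and from 8.45 to 3.49 in BF. The exception, the GTPase IFI47, was at 5.66 RPKM in Control and 16.3 in BF at 4 h. Lymphocyte markers summed to 14.3 RPKM in Control and 11.5 in BF at 4 h, and their part in these values was not tested.

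Chaperone genes of the endoplasmic reticulum included members on both sides. SDF2L1, a chaperone cofactor, was at 52.3 and 104 RPKM at 0 h and 29 and 87.8 at 4 h, and CRELD2, a secreted stress protein, at 32.7 RPKM in Control and 79.6 in BF at 4 h. HERPUD1, of the degradation pathway of the same organelle, was lower, at 163 RPKM in Control and 54.2 in BF. Of 34 expressed members 3 were at least 2-fold higher and 2 lower, and the median was 0.21 at 4 h. The clock output gene DBP was at 77.6 and 29.1 RPKM at 0 h and at 17.9 and 3.57 at 4 h, and 3 of 16 expressed clock genes were at least 2-fold lower.

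Genes of sugar and amino acid metabolism were found in both directions. Of 25 expressed genes of gluconeogenesis and glycolysis, 2 were at least 2-fold higher and 6 lower at 4 h. PCK2, the mitochondrial form of phosphoenolpyruvate carboxykinase, was at 6.87 and 20.4 RPKM at 0 h and at 5.27 and 17.3 at 4 h, a difference that resection left in place. HAL, which breaks down histidine, was at 160.4 and 114 RPKM at 0 h, then stayed at 164 in Control and rose to 356 in BF, while BF + BA was at 49.7. GPT, alanine aminotransferase, was lower in BF, at 226 RPKM in Control and 86.8 in BF at 4 h. AGXT, which removes glyoxylate, was higher, at 106 and 227 RPKM. Over the 38 expressed genes of amino acid breakdown and the urea cycle, 2 were at least 2-fold higher and 2 lower, and 24 had ratios below 0. Of all expressed genes, 1.19% were at least 2-fold higher, 3.16% lower and 59.4% below 0, so the share below 0 was near that of all genes.

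Antioxidant genes known as targets of NRF2 included 3 of 22 that were at least 2-fold higher and 5 that were lower. Ratios below 0 were found for 15, where 59.4% of all expressed genes were below 0. GPX2, a glutathione peroxidase, was at 0.90 and 2.05 RPKM at 0 h and at 0.63 and 4.68 at 4 h, and AKR1B7 and AKR7A3, described above, were the extremes of the list. Several secreted or membrane proteins were lower at both times. LOX, a collagen crosslinking enzyme, was at 15.2 and 3.74 RPKM at 0 h and 8.80 and 2.54 at 4 h. CXCL9, an interferon-induced chemokine, was at 26.4 and 6.44 RPKM at 0 h and 16.0 and 3.84 at 4 h. SLC39A4, a zinc importer, was at 35.5 and 10.7 RPKM at 0 h and 27.1 and 10.3 at 4 h. These 3 genes were thus already low in BF before resection. XBP1, a transcription factor of secretory cells, was at 294 and 153 RPKM at 0 h and at 375 and 162 at 4 h, with 474 in BF + BA.

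Most genes at least 2-fold apart at 4 h were not so at 12 and 24 h. Their choice by the ratio at 4 h in single columns favours smaller ratios at other times. At 12 h, when 1.84% of all genes were at least 2-fold higher and 1.68% lower in BF, 21 of the 101 higher genes, or 20.8%, and 47 of the 267 lower genes, or 17.6%, were still 2-fold apart in the same direction. At 24 h, with 0.768% and 1.31% of all genes, the numbers were 16 and 39, or 15.8% and 14.6%. At least 2-fold apart in the same direction at no time other than 4 h were 42 of the higher and 148 of the lower genes. Some members were at least 2-fold apart in the opposite direction later, 10 of the higher and 17 of the lower genes at 12 h, and 2 and 5 at 24 h. The genes already apart at 0 h kept larger medians at 12 h, 0.75 for the higher and -0.46 for the lower genes, than those within 1.5-fold at 0 h, which had medians of -0.05 and -0.06.

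At all 4 times, 8 genes were at least 2-fold higher and 14 lower. The 8 were AKR1B7, CYP8B1, CYP7A1, HMGCS1, SC4MOL, G6PC, SLC13A3 and TOR3A, of which the last 3 are named after their values were seen. G6PC, the last enzyme of glucose release, was at log2 ratios of 1.58, 1.27, 2.81 and 1.59 at 0, 4, 12 and 24 h. CYP8B1 was at 3.52, 2.47, 2.50 and 2.55 at these times. Among the 14, SCD1 was at -3.30, -2.44, -2.34 and -1.08, GSTM2 at -1.77, -2.11, -1.73 and -1.31, and PFKM at -2.83, -2.72, -1.76 and -1.84.

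**Figure D5:**
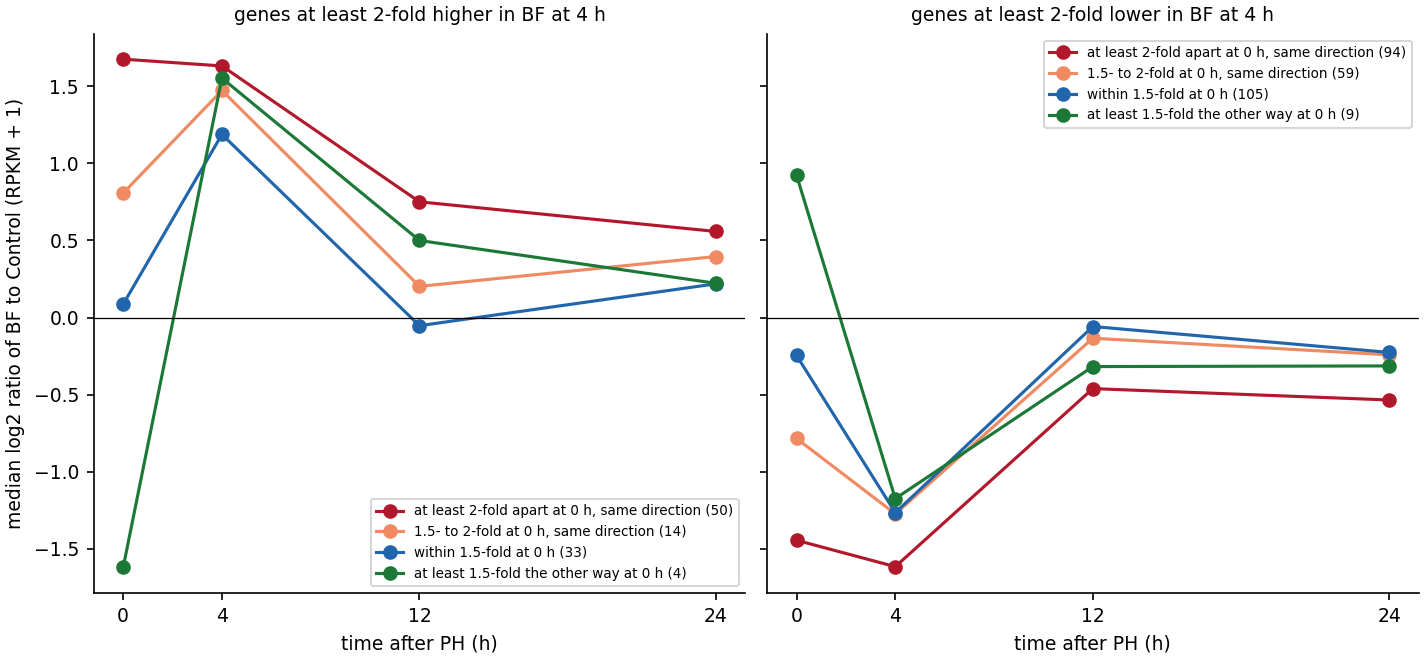
Lines join the median log2 ratios of BF to Control (RPKM plus 1) at 0, 4, 12 and 24 h after PH for genes at least 2-fold higher (left) or lower (right) at 4 h, in 4 groups by their difference at 0 h, with the number of genes in parentheses; the size at 4 h is set by the choice of the genes. The 50 higher genes already apart at 0 h had medians of 1.68, 1.63, 0.75 and 0.56, and the 105 lower genes within 1.5-fold at 0 h had -0.25, -1.27, -0.06 and -0.23.

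Members had higher median levels than all genes compared, in part because the 1 RPKM added keeps weakly expressed genes from reaching 2-fold. The median gene had a mean over the 12 columns of 34.5 RPKM among the 101 higher genes and 20.5 RPKM among the 267 lower genes, against 10.99 RPKM over all genes compared. Under 5 RPKM in both 4 h columns were 8 and 32 members, for which a ratio with 1 RPKM added understates the change. Without such genes the shares already apart at 0 h were 53.8% and 37.0%.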

How the data were processed

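The authors sequenced poly(A) libraries of whole liver as single 50-base reads and deposited RPKM values of 14692 genes in 12 columns of a single table, given to 2 decimals. Per the labels' processing notes, CASAVA and Bowtie 0.12.2 and the builds rn4 and mm8 were used, with no role given for each. The counting method and annotation are not given in the sources used here. Each column is the mean of 2 runs, and the depth is unknown.

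From these values, log2 ratios were computed after adding 1 RPKM, over the 8459 genes that averaged 1 RPKM or more; 1 gene had no value. A gene was counted as apart at 2-fold, and classed at 0 h with limits of 2- and 1.5-fold. With 1 column per group and time there is no test and no p-value. Named were the 12 highest and 12 lowest genes at 4 h, the 8 largest in each direction among those apart and among those within 1.5-fold at 0 h, up to 3 per list past 2-fold, and 10 genes of the study's question. Acute phase genes beyond these, the 8 genes apart at all times and the genes at the limit were named after their values were seen. Some genes selected by this rule are not described. The members and lists were chosen with earlier results of these data known. Older symbols and promoters came from RefSeq for GRCr8. Alternatives were other pseudocounts, filters and scalings and the group names of the sample descriptions. Python 3.11.15, numpy 2.4.6, pandas 2.3.3 and matplotlib 3.10.9 were used, and the computation was tested on simulated data.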

Additional observations from a re-analysis of the deposited data

Results flagged for a closer look

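Several of the genes named above moved in opposite directions, by at least 1.5-fold each way, in the 2 groups or at the 2 times, and each group is 1 column, so these differences were not tested. From 0 to 4 h, Control moved up and BF down for ZFP354A, PEX11A, UPP2, CYP2B1 and NFKBIZ, and the log2 change in BF minus that in Control was -3.06, -3.38, -3.33, -1.37 and -2.30. Control moved down and BF up for CRELD2 and RPL30, by differences of 1.60 and 7.56. ZFP354A, PEX11A and UPP2 had single peaks in the Control column at 4 h, at 95.0, 95.6 and 93.7 RPKM, against 12.7, 3.33 and 1.93 RPKM in Control at 12 h.

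Between 0 and 4 h the ratio of BF to Control changed sign for ZFP36, NFKBIZ, GADD45B, CXCL1 and MYC, by -1.75, -2.30, -2.32, -4.53 and -1.38 on the log2 scale, and for RPL30 by 7.56. For CXCL1 the Control column went from 1.66 to 254 RPKM and the BF column from 28.2 to 119.9. MYC was at a log2 ratio of 0.75 at 0 h and -0.64 at 4 h, so it did not reach 2-fold at either time.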

How the results depend on the processing

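The counts of genes apart at 4 h depended most on the pseudocount and on the group names. With 0.1 RPKM added, 161 genes were at least 2-fold higher in BF, and with 5 RPKM added, 59 were higher and 160 lower. With the group names of the sample descriptions, 171 genes were higher and 445 lower, of which 31.6% and 22.7% were already apart at 0 h. Counting a gene as already apart from 1.5-fold at 0 h gave 63.4% and 57.3%, against 4.04% and 9.22% of all genes. When each column was rescaled on its median expressed gene, 29.5% of the lower genes were already apart at 0 h, and the median ratios at 0 h and 4 h were 0.0022 and 0.020. The other alternatives were no filter on low values, a mean of 5 RPKM or more, and leaving out members under 5 RPKM. The last was chosen after seeing the data. None of these moved a count by more than 1.5 times or a share outside its 95% Clopper-Pearson interval. The pseudocounts left the shares within it. This interval treats genes as independent draws and holds no spread between rats, so it served only as a limit for calling a share moved. Rescaling took ZFP36, SPRY4, SOCS2, NFKBIZ, CXCL1 and APOA4 just under 2-fold, among 94 named genes, and 0.1 RPKM added took none under it. Of 32 list medians, the other group names changed the sign of 3 (bile acid synthesis to -0.17, AP-1 activation to 0.10, MAP kinase phosphatases to 0.02), and rescaling that of 2 (heat shock to 0.09, the TGF-beta list to 0.03). Unknown depth limits every gene near 1 RPKM. No paired analysis was possible because each group and time has 1 averaged column. Leaving out a run was not possible for the same reason.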

Other observations

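Genes with sex-specific expression in rat liver differed between BF and Control, in lists chosen with the values known. Of 9 genes known as higher in males, 5 were at least 2-fold lower in BF at 4 h and none was at least 2-fold higher. The median log2 ratio of the 9 was -0.95 at 0 h and -1.53 at 4 h. Ratios above 0 at 4 h were found for 2 of the 9, HSD3B5, at 310 RPKM in Control and 350 in BF, and CYP4A2. CYP4A2, at 214 and 428 RPKM, lay just under 2-fold higher in BF. The P450 listed as CYP2C, an older symbol of the male form CYP2C11, was at 2997 RPKM in Control and 696 in BF at 0 h and at 2089.8 and 363 at 4 h, with 634 in BF + BA. CAR3, a carbonic anhydrase, was at 4044 and 1117 RPKM at 0 h and 2502 and 404 at 4 h. OBP3, a urinary protein, was at 2668 and 1066 RPKM at 0 h and 2381 and 537 at 4 h. All 7 genes known as higher in females had ratios above 0 at 4 h, with a median of 0.71, and 3 were at least 2-fold higher, CYP2C12, CUX2, a repressor of male genes, and SRD5A1, a steroid reductase. At 0 h the median of these 7 was 0.42, with 2 below 0. The 4 h median was 1.36 with 0.1 RPKM added and 0.47 with the group names of the sample descriptions. CUX2 was at 1.87 RPKM in Control and 8.68 in BF at 4 h, and SRD5A1 at 47.0 and 142 RPKM. All animals were male.

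Genes known to be induced by glucocorticoids, in another list chosen with the values known, had ratios in both directions at 0 h and mostly below 0 at 4 h. At 0 h, 2 of 17 expressed members were at least 2-fold higher in BF and 2 lower. Of the 17 members, 15 had ratios below 0 at 4 h and 6 were at least 2-fold lower, and the median went from -0.04 to -0.81. LPIN1, a phosphatidate phosphatase, went from 47.1 to 266 RPKM in Control and from 26.5 to 55.1 in BF. TAT, tyrosine aminotransferase, went from 650.3 to 3354 RPKM in Control and from 873 to 2003 in BF. The 6 genes included FKBP5, PDK4, CDKN1A and CEBPB, which other lists also hold, and SGK1, already lower at 0 h, at 22.9 and 8.73 RPKM, and at 34.1 and 14.9 at 4 h.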
